A study of Mus musculus with 6 samples.

Results

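The cytosolic ribosomal protein genes, which encode the protein parts of the ribosome that translates nuclear-encoded mRNA, were described in bulk polyadenylated RNA from 6 mouse liver tumours. They were taken by symbol, as rows named Rpl or Rps with a number and at most a short suffix, together with Rplp0, Rplp1, Rplp2 and Rpsa, and rows with "-ps" in the name were left out. This gave 89 of the 55291 genes in the table, 53 of the large subunit and 36 of the small subunit. Of these rows 83 are annotated as protein-coding and 6 as pseudogenes (Rpl32l, Rpl6l, Rps12l1, Rps3a2, Rps3a3 and Rps4l). Levels are given in TPM, a read signal per base of exon rescaled to a total of 1000000 in each library, so that levels of genes of different length can be set side by side.

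The tumours fell into 2 groups of 3, and each was 1 library. The MKO_PD1 tumours came from Trem2-MKO mice, in which the lipid-sensing receptor Trem2 is knocked out in myeloid cells. The Cre_PD1 tumours came from LysM-Cre mice, which carry the Cre recombinase under a promoter active in macrophages, monocytes and neutrophils and keep Trem2. All were RIL-175/PD-1R tumours, RIL-175 being a mouse liver cancer line, and every host was given anti-PD-1, which blocks the PD-1 checkpoint receptor found on T cells. The labels give no age or sex and leave PD-1R unexplained, and the design counts 3 mice a genotype without tying libraries to mice. The comparison asks which transcripts differ in tumours grown with and without myeloid Trem2. It says nothing of untreated tumours, since every mouse was treated.

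The ribosome is built from ribosomal RNA and one copy of most ribosomal proteins, so their genes are expressed at high and matched levels in growing cells. Their mRNAs begin with a 5′ terminal oligopyrimidine tract (TOP), a C followed by further pyrimidines, through which the mTOR pathway and the RNA-binding protein Larp1 set their translation. Myc raises transcription of many of them. Hepatocytes and tumour cells both make many ribosomes, the first for secreted plasma proteins and the second for growth.

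The start sites of the members were read for the TOP tract, and the windows printed here show what it looks like in genes described later. RefSeq promoter sequences of GRCm38.p6 matched 64 of the 89 members. A C followed by at least 4 pyrimidines exactly at an annotated start was found in 14 of the 64 (21.9%), against 2.67% of 17492 protein-coding genes. The 14 include the pseudogene Rpl32l, whereas the genes they are set against are protein-coding only. The windows hold 20 bases before the start and 10 from it on, with the run of pyrimidines around the start in capitals.
Rps6, chr4:86857358-86857387, minus strand: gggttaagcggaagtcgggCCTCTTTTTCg
Rps27, chr3:90213639-90213668, minus strand: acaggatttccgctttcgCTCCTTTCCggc
Rplp2, chr7:141447631-141447660, plus strand: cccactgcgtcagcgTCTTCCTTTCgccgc
Rpl28, chr7:4792945-4792974, plus strand: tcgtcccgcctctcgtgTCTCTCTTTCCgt
Rpl38, chr11:114668560-114668589, plus strand: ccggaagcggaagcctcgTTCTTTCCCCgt
Rps27l, chr9:66946066-66946095, plus strand: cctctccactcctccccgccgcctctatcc
The first 5 hold the tract at the start. In the window of Rps27l, at its first annotated start, a C followed by 4 pyrimidines begins just after the start, so it was not counted. In the 300 bases from 250 before to 50 after the start, CTCTTT on the strand of the gene was present in 35.9% of the 64 members and 13.1% of those protein-coding genes, and CTTTCC in 39.1% of members and 15.9% of those genes, both of which can lie inside the tract. CCGGAAG on either strand, the core of sites for ETS factors, was present in 40.6% of members and 12.9% of those genes. A start annotated a few bases away hides the tract, so no match says only that these letters are not there.

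Libraries held 26747236 to 34264909 reads recovered from the deposited values. Trem2 was at 7.68, 17.97 and 6.81 TPM in the MKO_PD1 libraries and 10.5, 16.5 and 14.9 TPM in the Cre_PD1 libraries. The groups overlapped and the library labelled MKO_PD1 replicate 2 was the highest of all, so this value does not check that label. Reads summed over all Trem2 exons cannot show the deletion, whose extent the labels do not give. In the fit across all 16506 genes tested, limma called 1 gene higher and 1 lower in MKO_PD1 at an adjusted p under 0.05. The median log2 difference (MKO_PD1 minus Cre_PD1) of all tested genes was -0.42 in TPM, and with median-of-ratios scaling it was -0.012. The share of TPM in 15 hepatocyte marker genes was 14.3, 3.58 and 10.02% in MKO_PD1 replicates 1, 2 and 3 and 1.37, 2.699 and 2.87% in Cre_PD1 replicates 1, 2 and 3. No gene of any cell type marker list was at 0 in any library.

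Ribosomal protein genes took a smaller share of the transcripts in each MKO_PD1 tumour than in any Cre_PD1 tumour. Their share of TPM was 4.12, 7.84 and 5.55% in MKO_PD1 replicates 1, 2 and 3 and 12.03, 10.6 and 8.21% in Cre_PD1 replicates 1, 2 and 3. The mean was 5.84 ± 1.88% in MKO_PD1 and 10.3 ± 1.93% in Cre_PD1 (SD, n = 3 each), a ratio of 0.567. The groups did not overlap, but MKO_PD1 replicate 2 lay closer to Cre_PD1 replicate 3 than to either other MKO_PD1 library. In recovered reads, which carry no correction for length, the share was 2.73, 4.46 and 3.36% in MKO_PD1 replicates 1, 2 and 3 and 6.63, 6.26 and 4.56% in Cre_PD1 replicates 1, 2 and 3, again without overlap. Since the members were chosen with these data known, their summed share was given no test. In bulk tissue, fewer cells rich in these mRNAs and less of the mRNA in each cell cannot be told apart.

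The tumours also differed in their tissue markers. The summed level of 8 epithelial tumour cell genes, such as Krt8, Krt19 and Epcam, was 2472 to 9858 TPM in MKO_PD1 and 18127 to 24716 TPM in Cre_PD1. That of 6 cycling genes, such as Mki67 and Top2a, was 42.9 to 253 TPM in MKO_PD1 and 280.2 to 327 TPM in Cre_PD1. Neutrophil genes summed to 248 to 972 TPM in MKO_PD1 and 102 to 202 TPM in Cre_PD1, and 6 endothelial genes to 97.8 to 119 TPM in MKO_PD1 and 68.3 to 81.1 TPM in Cre_PD1. Macrophage genes overlapped (3338 to 6836 TPM in MKO_PD1 and 2677 to 3598 TPM in Cre_PD1), as did the summed T cell, B and plasma cell, and fibroblast and stellate cell genes. Mitochondrially encoded genes took 4.90 to 6.76% of TPM in MKO_PD1 and 2.62 to 4.08% in Cre_PD1. Across all 6 libraries the ribosomal protein share ran in the opposite order to both the hepatocyte and the mitochondrial share. It ran in the same order as the summed epithelial tumour cell genes. With the 15 hepatocyte genes taken out of the total, the ribosomal protein share was 4.81, 8.13 and 6.17% in MKO_PD1 replicates 1, 2 and 3 and 12.2, 10.9 and 8.46% in Cre_PD1 replicates 1, 2 and 3, and the groups still did not overlap. Other hepatocyte transcripts stay in that total. The part of the hepatocyte, epithelial, cycling, neutrophil, endothelial and mitochondrial genes in the result was not tested.

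**Figure D1:**
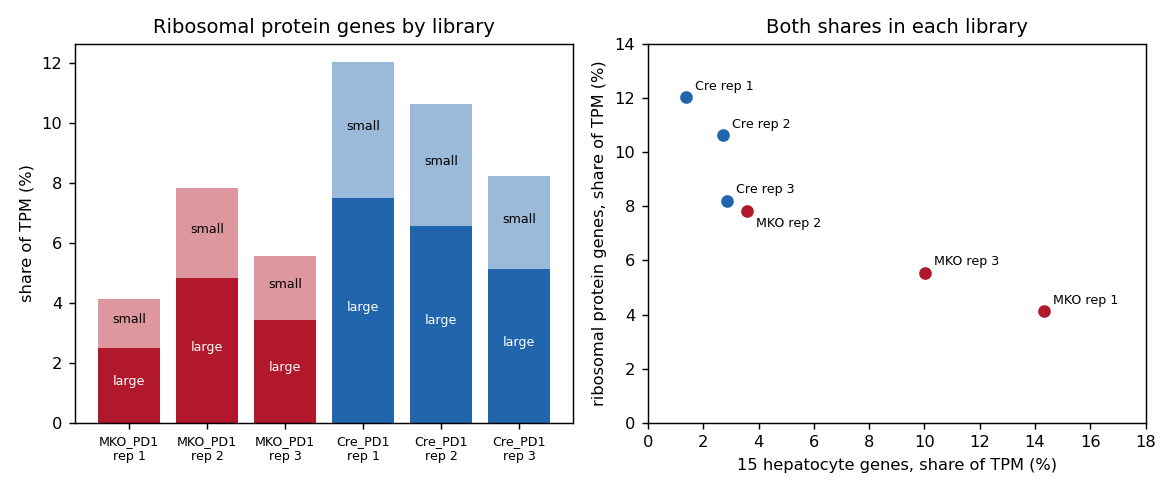
Share of TPM in ribosomal protein genes in each library, split into large and small subunit genes (left, bars from 0, no error bar since each bar is 1 library), and the same share against that of 15 hepatocyte genes (right, red MKO_PD1, blue Cre_PD1). MKO_PD1 libraries sit between 4.12 and 7.84%, below the 8.21 to 12.03% of the Cre_PD1 libraries, and MKO_PD1 replicate 2 is the one nearest to Cre_PD1 replicate 3.

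Both subunits had the smaller share in MKO_PD1. Large subunit genes held 3.58 ± 1.16% of TPM in MKO_PD1 and 6.39 ± 1.19% in Cre_PD1, and small subunit genes 2.26 ± 0.713% in MKO_PD1 and 3.90 ± 0.741% in Cre_PD1. The ratio of large to small subunit TPM was 1.55, 1.59 and 1.61 in MKO_PD1 and 1.65, 1.62 and 1.66 in Cre_PD1. The groups did not overlap, with means of 1.58 ± 0.0312 in MKO_PD1 and 1.64 ± 0.0192 in Cre_PD1, but the gap between their nearest libraries was smaller than either SD.

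No single ribosomal protein gene passed the test. With limma on log2(TPM + 1) and Benjamini-Hochberg adjustment over all 16506 genes, 0 of the 84 tested members were called lower and 0 higher, against 0.00606% of all genes in each direction. Adjusted p ran from 0.168 to 0.928. At an unadjusted p under 0.05 there were 45 members lower in MKO_PD1, against 19.5% of all genes, and 0 higher, against 8.47%. That count depended on the scaling. With median-of-ratios scaling, 5 of the 84 members had an unadjusted limma p under 0.05 in either direction. The share of all genes was not counted on that scale, so whether these 5 lie above or below it is not known. The voom fit on recovered reads also called 0 members.

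Gene by gene, the differences nearly all pointed one way. Of the 84 tested members 83 had a negative log2 difference, against 72.9% of all tested genes. The 3 MKO_PD1 values all lay below the 3 Cre_PD1 values for 42 members, against 28.9% of all genes, and above them for 1 member (Rps4l), against 10.1% of all genes. The median member difference was -0.84, with quartiles of -0.93 and -0.72, beside a median of -0.42 and quartiles of -0.76 and 0.064 over all tested genes. The SD of the differences was 0.257 among the 84 members and 0.747 among all tested genes. The median was -0.86 for the 49 tested large subunit genes and -0.78 for the 35 tested small subunit genes. Members share libraries and are not independent of one another, so these counts describe these 6 tumours.

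**Figure D2:**
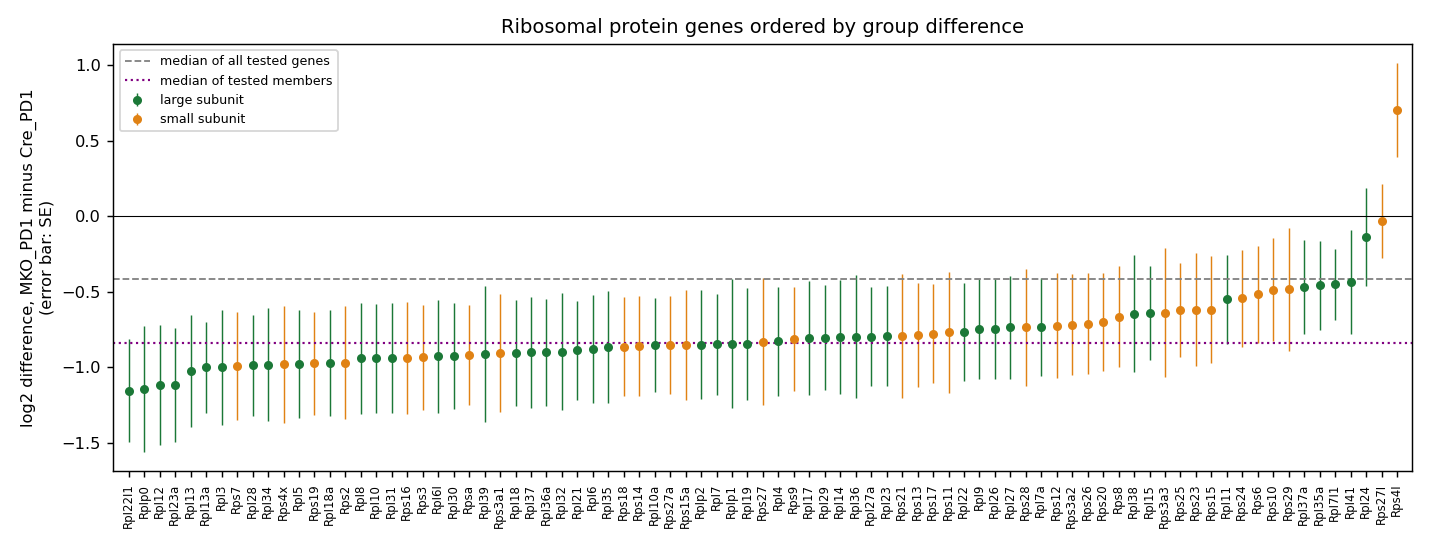
Log2 difference (MKO_PD1 minus Cre_PD1) of 83 of the 84 tested ribosomal protein genes, ordered by size, with its standard error from limma, large subunit genes in green and small subunit genes in orange. Most points lie near the dotted member median of -0.84, below the dashed all-gene median of -0.42, and Rps4l at 0.70 is the one above 0.

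The size of this difference depended on the scaling and on the libraries included. Under median-of-ratios scaling the member median was -0.36 and 77 of 84 members were below 0 (51.0% of all genes). Without overlap, 19 members were lower (21.1% of all genes) and 1 was higher (18.9% of all genes). The count of 19 lies near the share of all genes on that scale. Without MKO_PD1 replicate 2, limma called 66 of 84 members lower, against 38.0% of all genes in that fit, with a member median of -1.07 beside an all-gene median of -0.66. Without MKO_PD1 replicate 1, limma called 0 members lower, and the member median was -0.59 beside an all-gene median of -0.20.

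The tumours stood in nearly the same order for most members. Cre_PD1 replicate 1 was the highest library for 79 of the 84 tested members and MKO_PD1 replicate 1 the lowest for 82. MKO_PD1 replicate 2 was above MKO_PD1 replicate 1 for all 84. The full order of Cre_PD1 replicates 1, 2 and 3 above MKO_PD1 replicates 2, 3 and 1 held for 41 members, and for 5.79% of all tested genes. That is the order of the summed share, which the members themselves make up.

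Levels of the members spanned a wide range. Averaged over the 6 libraries, 30 members were above 1000 TPM, 46 between 100 and 1000 TPM, 8 between 1 and 100 TPM and 5 below 1 TPM. The 10 highest held 35.0% of all member TPM. They were Rplp1, Rplp0, Rps3a1, Rps2, Rpl36, Rps15, Rpl8, Rpl4, Rps4x and Rpl19. Comparisons of level between members carry a limit, because the deposited values divide by the union of all annotated exons. For the 80 tested protein-coding members this union was a median of 2.01 times the length of the principal mRNA and up to 6.81 times for Rpl35a. The SD of log2 levels among them was 1.61 by exon union and 1.55 by mRNA length.

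Of the 4 genes of the ribosomal stalk, 3 had all MKO_PD1 values below all Cre_PD1 values, against 28.9% of all tested genes, and none passed the test. The stalk is a flexible arm of the large subunit that recruits the translation factors that hydrolyse GTP. Rplp1, the highest member, encodes one of its acidic proteins and was at 3638, 6242 and 4404 TPM in the MKO_PD1 libraries and 9688, 8733 and 6862 TPM in the Cre_PD1 libraries. Rplp0 (chr5:115559467-115563727, plus strand, GRCm38), the anchor of the stalk and a common reference gene in quantitative PCR, was at 1502, 3191 and 2264 TPM in the MKO_PD1 libraries and 5972, 4823 and 4042 TPM in the Cre_PD1 libraries. Every MKO_PD1 library was below every Cre_PD1 library for both genes. The log2 difference was -0.85 (SE 0.43) for Rplp1 and -1.14 (SE 0.42) for Rplp0, with limma adjusted p of 0.210 and 0.168. Rpl12, at the base of the stalk, was at 228, 577 and 379 TPM in the MKO_PD1 libraries and 1028, 818 and 610.0 TPM in the Cre_PD1 libraries, a log2 difference of -1.12 (SE 0.40), and MKO_PD1 replicate 2 came within a narrow margin of Cre_PD1 replicate 3. The second acidic protein gene, Rplp2, was at 280.5, 619 and 408 TPM in the MKO_PD1 libraries and 908, 773 and 594 TPM in the Cre_PD1 libraries, and here MKO_PD1 replicate 2 exceeded Cre_PD1 replicate 3. The median over the 4 genes was -0.99, and 3 of the 4 were below an unadjusted p of 0.05 and lower, against 19.5% of all tested genes.

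Genes for proteins near the catalytic centre had a median log2 difference of -0.94, beside -0.84 for all tested members. Rpl3, Rpl10 and Rpl4, whose proteins reach towards the peptidyl transferase centre or join last in assembly, did not overlap between the groups. Rpl10 was at 891, 1633 and 1228 TPM in the MKO_PD1 libraries and 2777, 2386 and 1902 TPM in the Cre_PD1 libraries, with a log2 difference of -0.94 (SE 0.36). Rpl3 averaged 608 ± 254 TPM in MKO_PD1 and 1155 ± 195 TPM in Cre_PD1 and Rpl4 averaged 1422 ± 429 TPM in MKO_PD1 and 2472 ± 404 TPM in Cre_PD1. Of 8 genes whose proteins line the exit tunnel or its mouth, 4 were lower without overlap, against 28.9% of all tested genes, with a median of -0.85. Among these Rpl23a, a docking site at the tunnel exit, was at 536, 1229 and 880.2 TPM in the MKO_PD1 libraries and 2033, 1869 and 1558 TPM in the Cre_PD1 libraries, a log2 difference of -1.12 (SE 0.38). Rpl10a, of the L1 stalk through which empty tRNA leaves, averaged 478 ± 139 TPM in MKO_PD1 and 847 ± 114 TPM in Cre_PD1 without overlap.

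The 5S ribonucleoprotein genes differed from each other in size. Their proteins, Rpl5 and Rpl11, bind 5S ribosomal RNA, and when free they bind Mdm2 and stabilise p53. Rpl5 was at 259.6, 560.1 and 396 TPM in the MKO_PD1 libraries and 902, 831 and 589 TPM in the Cre_PD1 libraries, without overlap. Rpl11 was at 313, 493 and 351 TPM in the MKO_PD1 libraries and 638, 592 and 453 TPM in the Cre_PD1 libraries, and MKO_PD1 replicate 2 lay above Cre_PD1 replicate 3. The log2 differences were -0.98 (SE 0.36) and -0.55 (SE 0.30). Whether the 2 genes differ from each other was not tested.

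Small subunit genes for mRNA entry and decoding had differences of the same sign as the large subunit genes. Of the 4 entry and decoding genes Rps2, Rps3, Rps9 and Rps23, the first 3 were lower without overlap, against 28.9% of all tested genes. Rps2 was at 1167, 2227 and 1588 TPM in the MKO_PD1 libraries and 3679.6, 3070.4 and 2753 TPM in the Cre_PD1 libraries, a log2 difference of -0.97 (SE 0.37). Rps23, a decoding centre protein, averaged 656 ± 238 TPM in MKO_PD1 and 990.1 ± 261 TPM in Cre_PD1 and overlapped. Of 4 beak and head genes, Rps19 and Rps27a did not overlap. Rps27a, which encodes a fusion with ubiquitin, averaged 544 ± 153 TPM in MKO_PD1 and 973 ± 199 TPM in Cre_PD1. Rps6, the small subunit protein phosphorylated by S6 kinase and chosen for that role after its values were seen, was at 636, 982 and 712 TPM in the MKO_PD1 libraries and 1308, 1154 and 862 TPM in the Cre_PD1 libraries, and the groups overlapped.

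A group of 11 members was taken from the genes known to be mutated in Diamond-Blackfan anaemia, a human failure of red cell production. In these mouse tumours all 11 had a negative difference, against 72.9% of all tested genes, 5 were lower without overlap, against 28.9%, and 0 were called, with a median of -0.71. Rps19, the gene most often mutated in that disease, was at 137, 299 and 203 TPM in the MKO_PD1 libraries and 468, 423 and 322 TPM in the Cre_PD1 libraries. Its log2 difference was -0.97 (SE 0.34). Rpl35a averaged 161 ± 35.7 TPM in MKO_PD1 and 222 ± 51.0 TPM in Cre_PD1 and overlapped, with the smallest difference of the 11 at -0.46 (SE 0.29).

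Of the other members of smallest unadjusted p, Rpl13a and Rpl28 encode large subunit proteins. Rpl28 was at 475, 895 and 677 TPM in the MKO_PD1 libraries and 1523, 1290.0 and 1143 TPM in the Cre_PD1 libraries, a log2 difference of -0.99 (SE 0.33). Rpl13a was listed far below its neighbours in the ribosome, at 31.8, 56.2 and 38.3 TPM in the MKO_PD1 libraries and 106, 77.3 and 69.5 TPM in the Cre_PD1 libraries, with a log2 difference of -1.001 (SE 0.30). Rps10 and Rpl24 were lower still, at 8.65 ± 3.47 TPM in MKO_PD1 and 12.1 ± 2.27 TPM in Cre_PD1 for Rps10 and 3.17 ± 1.27 TPM in MKO_PD1 and 3.46 ± 0.506 TPM in Cre_PD1 for Rpl24, both with overlapping groups. All 3 share exon bases with another annotated gene on the same strand, over 59.3% of the principal mRNA of Rpl13a, 53.6% of that of Rps10 and 71.5% of that of Rpl24. How the submitters treated reads on shared bases is not given in the sources used here, so the levels of these 3 genes are uncertain, and the part of the shared bases in them was not tested.

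All 80 tested protein-coding members had a negative difference in TPM. Of the highest ones not yet described, the small subunit gene Rps3a1 averaged 2446 ± 760.0 TPM in MKO_PD1 and 4466 ± 639 TPM in Cre_PD1 without overlap and Rps15, near the decoding site, averaged 1619.6 ± 477 TPM in MKO_PD1 and 2435 ± 308 TPM in Cre_PD1 with overlap. The X-linked Rps4x averaged 1327 ± 489 TPM in MKO_PD1 and 2529.6 ± 457 TPM in Cre_PD1, Rpl8 averaged 1408 ± 465 TPM in MKO_PD1 and 2628 ± 396 TPM in Cre_PD1 and Rpl19 averaged 1342 ± 462 TPM in MKO_PD1 and 2341 ± 398 TPM in Cre_PD1, each without overlap. Rpl36 averaged 1718 ± 526 TPM in MKO_PD1 and 2989 ± 899 TPM in Cre_PD1 with overlap. Rpl41, the smallest ribosomal protein gene product, was at 763, 1208 and 816 TPM in the MKO_PD1 libraries and 1538, 1303 and 928 TPM in the Cre_PD1 libraries, with a difference of -0.44 (SE 0.34) that turned to 0.044 under median-of-ratios scaling.

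At the low end, 5 members had too few reads to be tested. Rpl10l, a testis paralogue of Rpl10, and the pseudogene Rps12l1 had 0 reads in all 6 libraries, where 3 reads, the limit a count of 0 allows, would be 0.224 to 0.335 TPM for Rpl10l and 0.573 to 0.858 TPM for Rps12l1. Rpl3l, the heart and skeletal muscle paralogue of Rpl3, had 3, 6 and 3 reads in MKO_PD1 and 6, 1 and 4 in Cre_PD1. Rpl39l, a testis paralogue of Rpl39, had 4, 2 and 1 reads in MKO_PD1 and 5, 2 and 5 in Cre_PD1. Rpl32l had 1, 3 and 1 reads in MKO_PD1 and 7, 2 and 0 in Cre_PD1. Differences between groups were not detectable for these genes at this depth. The tested pseudogenes Rps3a2, Rps3a3 and Rpl6l averaged 18.4 ± 6.43 TPM in MKO_PD1 and 30.3 ± 6.66 TPM in Cre_PD1 for the first, 2.90 ± 1.78 TPM in MKO_PD1 and 4.95 ± 1.99 TPM in Cre_PD1 for the second and 2.42 ± 1.19 TPM in MKO_PD1 and 5.41 ± 1.68 TPM in Cre_PD1 for the third. Their sequences resemble those of Rps3a1 and Rpl6, whose reads the counting could have placed on them, and their values are uncertain for that reason. The 319 "-ps" rows of the table, which were not members, took 0.0803 to 0.211% of TPM.

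To see which members departed from the family, each library was divided by the median ratio of the tested members to their own means, a scaling chosen after the data were seen. On that scale 67 of 84 members differed by less than 0.25 log2 units between the groups and 82 by less than 0.5. It called 0 members, and 2 had an unadjusted limma p under 0.05 (Rps4l and Rps27l), a count for which the share of all genes was not taken. The groups did not overlap for 18 members higher, against 25.6% of all genes on that scale, and for 19 members lower, against 3.61% of all genes. The scaling fixes the members' middle at 0, so that some must lie on each side.

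Rps29, Rpl38 and Rps28, which encode some of the smallest ribosomal proteins, were low relative to the family in Cre_PD1 replicate 3. The median of the members with the shortest mRNAs was low there too. Rps29 was at 212, 357 and 326 TPM in the MKO_PD1 libraries and 604, 482 and 232 TPM in the Cre_PD1 libraries. Relative to the family, its log2 deviation was 0.19, -0.03 and 0.36 in MKO_PD1 replicates 1 to 3 and 0.14, -0.0047 and -0.66 in Cre_PD1 replicates 1 to 3. Cre_PD1 replicate 3 was thus the low one, and the deviation there was -0.43 for Rpl38 and -0.34 for Rps28. The 6 members with the shortest mRNAs, at most 457 bases (Rps27, Rpl36, Rps29, Rps28, Rps21 and Rpl38), had a median deviation of -0.02, -0.01 and 0.16 in MKO_PD1 replicates 1 to 3 and of 0.14, 0.07 and -0.34 in Cre_PD1 replicates 1 to 3. The rank correlation of mRNA length with the deviation was 0.44 in Cre_PD1 replicate 3 and -0.31 in MKO_PD1 replicate 3, over 80 genes that share each library, and the other 4 libraries lay between -0.15 and 0.0014. It is a description without a test, and the part of mRNA length in the differences of these short genes was not tested.

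**Figure D3:**
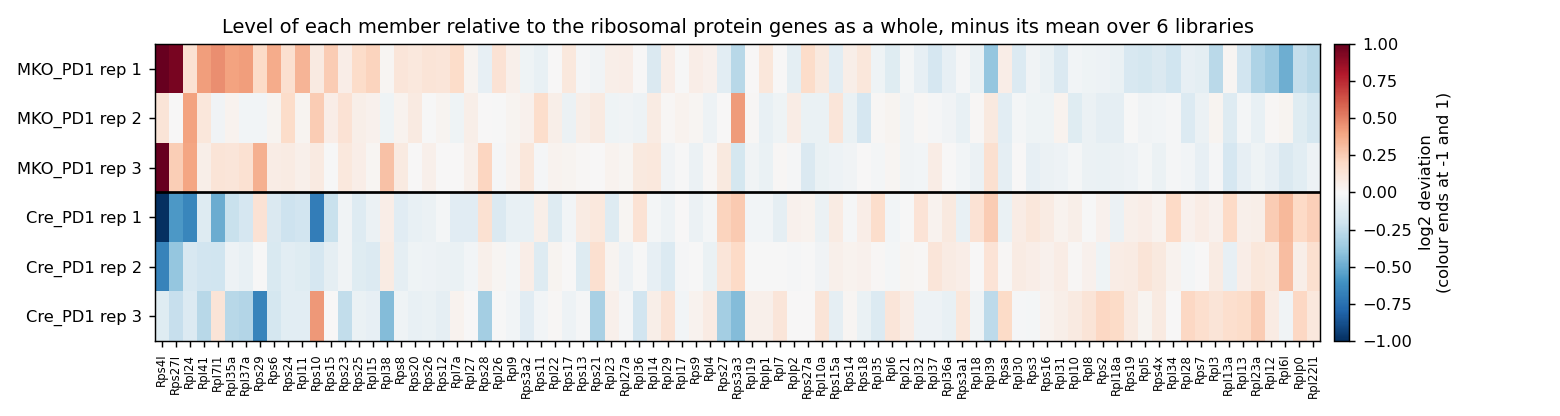
Log2 deviation of 83 tested members in each library from their own mean over 6 libraries, after scaling to the ribosomal protein genes, with MKO_PD1 libraries above the line and Cre_PD1 libraries below it. Most squares are pale, and Rps4l and Rps27l at the left are red in MKO_PD1 replicate 1 (1.08 and 0.95) and blue in Cre_PD1 replicate 1 (-1.55 and -0.58).

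The paralogues included the 2 members furthest above the family, Rps4l and Rps27l, and the one furthest below it, Rpl22l1. Of 7 pairs of a paralogue and its main gene, 4 averaged at least 1 TPM for both genes and were compared as a ratio within each library, in which a library's scaling cancels except through the pseudocount of 1 added before log2 ratios were taken. An exact two-sided permutation test over 3 and 3 libraries cannot give a p below 0.1, so no pair could pass. P was adjusted over the 4 pairs.

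Rps27l (chr9:66946086-66949516, plus strand), a paralogue of Rps27 known as a target of p53, had a difference near 0 in TPM. It was at 378, 384 and 317 TPM in the MKO_PD1 libraries and 386, 388 and 329 TPM in the Cre_PD1 libraries. The main gene Rps27 was at 423, 894 and 668 TPM in the MKO_PD1 libraries and 1560.4, 1289 and 708 TPM in the Cre_PD1 libraries. The log2 difference was -0.03 (SE 0.25) for Rps27l, which became 0.45 under median-of-ratios scaling, and -0.83 (SE 0.42) for Rps27. Rps27l therefore stood at 89.3, 42.9 and 47.5% of Rps27 in the MKO_PD1 libraries and at 24.7, 30.1 and 46.4% in the Cre_PD1 libraries. The groups overlapped, and the log2 ratio differed by 0.80 (exact permutation p = 0.2, adjusted p = 0.2). Without MKO_PD1 replicate 1, the highest, this ratio difference was 0.47. The coding sequences of both genes are shown because reads of one could be taken for the other only where they match. They are from GENCODE M21 on GRCm38, 5′ to 3′, with capitals where they differ position by position.
Rps27l: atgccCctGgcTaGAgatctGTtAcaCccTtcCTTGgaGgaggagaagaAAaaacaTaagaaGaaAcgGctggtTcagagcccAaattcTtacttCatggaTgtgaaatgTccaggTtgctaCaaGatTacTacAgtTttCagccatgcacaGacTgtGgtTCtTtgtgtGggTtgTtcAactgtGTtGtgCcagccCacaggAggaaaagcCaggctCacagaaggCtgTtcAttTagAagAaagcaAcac
Rps27: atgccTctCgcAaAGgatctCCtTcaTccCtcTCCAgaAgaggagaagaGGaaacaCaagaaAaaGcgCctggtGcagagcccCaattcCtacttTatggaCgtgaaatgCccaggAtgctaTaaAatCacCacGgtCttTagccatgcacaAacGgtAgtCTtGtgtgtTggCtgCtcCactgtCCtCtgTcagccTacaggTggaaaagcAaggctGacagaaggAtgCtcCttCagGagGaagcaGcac
The 2 coding sequences have 252 bases each and match at 192 of them (76.2%), with 60 differences spread along the length.

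Rps4l (chr6:148354656-148355598, plus strand), annotated as a pseudogene resembling the X-linked Rps4x, was the only tested member with a positive difference in TPM. It was at 31.9, 32.4 and 45.4 TPM in the MKO_PD1 libraries and 15.1, 24.7 and 27.5 TPM in the Cre_PD1 libraries, all MKO_PD1 libraries above all Cre_PD1 libraries, with a log2 difference of 0.70 (SE 0.31) and a limma adjusted p of 0.180. Rps4x was at 871, 1844 and 1267 TPM in the MKO_PD1 libraries and 2891, 2682 and 2016 TPM in the Cre_PD1 libraries, in the opposite direction. Rps4l stood at 3.66, 1.75 and 3.59% of Rps4x in MKO_PD1 and at 0.523, 0.922 and 1.36% in Cre_PD1, a log2 ratio difference of 1.68 (exact permutation p = 0.1, the smallest possible, adjusted p = 0.2). The aligned bases of the 2 genes match at 80.2%, and the longest identical run is 35 bases.

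Rpl22l1 (chr3:28805436-28807424, plus strand), which can stand in for Rpl22 in mice lacking it, had the lowest difference of all members. It was at 40.3, 84.7 and 65.0 TPM in the MKO_PD1 libraries and 170.0, 143 and 104 TPM in the Cre_PD1 libraries, a log2 difference of -1.15 (SE 0.34) with a limma adjusted p of 0.168. Rpl22 was at 166, 338 and 233 TPM in the MKO_PD1 libraries and 444, 439.6 and 329.8 TPM in the Cre_PD1 libraries. Rpl22l1 stood at 24.3, 25.1 and 27.9% of Rpl22 in MKO_PD1 and at 38.2, 32.4 and 31.5% in Cre_PD1, so the groups did not overlap and the log2 ratio differed by -0.39 (exact permutation p = 0.1, the smallest possible, adjusted p = 0.2). The aligned coding bases match at 74.7%. Rpl7l1 averaged 58.6 ± 10.1 TPM in MKO_PD1 and 79.7 ± 3.33 TPM in Cre_PD1 and Rpl7 averaged 738 ± 232 TPM in MKO_PD1 and 1293 ± 165 TPM in Cre_PD1. Rpl7l1 stood at 9.77, 7.14 and 7.70% of Rpl7 in MKO_PD1 and at 5.37, 6.19 and 7.16% in Cre_PD1, with a log2 ratio difference of 0.40 (exact permutation p = 0.2, adjusted p = 0.2). The groups overlapped there by a narrow margin, and without MKO_PD1 replicate 1 the ratio difference was 0.26.

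**Figure D4:**
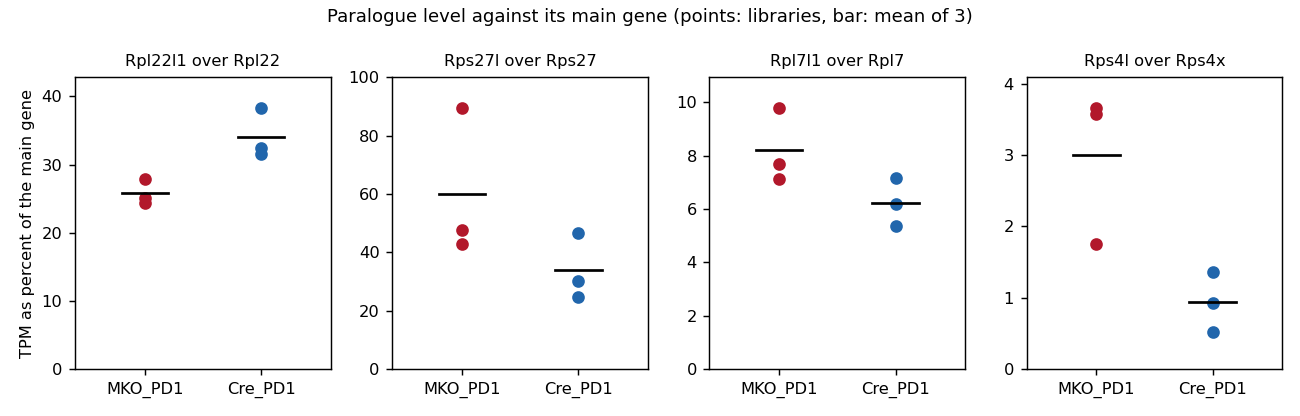
TPM of each paralogue as a percent of its main gene, one point per library with a bar at the mean of 3, MKO_PD1 left and Cre_PD1 right. Rpl22l1 over Rpl22 and Rps4l over Rps4x do not overlap, in opposite directions, and the high Rps27l point is MKO_PD1 replicate 1 at 89.3%.

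Genes outside the naming rule that belong to the same machinery gave differences of like sign, and 0 of them were called. Within the family, the 13 tested members with the TOP tract at the annotated start had a median log2 difference of -0.80, and the 47 without it one of -0.84. Of 5 ribosomal protein and partner genes outside the rule, 5 were below 0, against 72.9% of all tested genes. Of these 5, 1 was lower without overlap, against 28.9%, and their median was -0.62. Fau, the fusion gene of Rps30, was at 955, 2059 and 1364 TPM in the MKO_PD1 libraries and 3213, 2752 and 1963 TPM in the Cre_PD1 libraries, and MKO_PD1 replicate 2 exceeded Cre_PD1 replicate 3. Rack1, a scaffold on the small subunit head, was at 299, 566 and 391 TPM in the MKO_PD1 libraries and 953, 831 and 661 TPM in the Cre_PD1 libraries, without overlap. Of 16 tested mRNAs of translation factors and other proteins with a known TOP, 16 were below 0, against 72.9% of all tested genes, and 11 were lower without overlap, against 28.9%, with a median of -0.81. Among them Npm1, a nucleolar chaperone of ribosome assembly, averaged 384 ± 169 TPM in MKO_PD1 and 786 ± 151 TPM in Cre_PD1, and Eef1b2, of elongation, averaged 400.1 ± 123.4 TPM in MKO_PD1 and 746 ± 169.7 TPM in Cre_PD1. Of 8 tested snoRNA host genes, known for TOP tracts on RNAs that are not translated into a known protein, 8 were below 0 and 3 were lower without overlap, the last near that share of all genes. Zfas1 averaged 52.0 ± 22.0 TPM in MKO_PD1 and 121 ± 35.7 TPM in Cre_PD1 and Gas5 averaged 89.7 ± 24.5 TPM in MKO_PD1 and 152 ± 22.8 TPM in Cre_PD1.

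Factors that build ribosomes and start translation nearly all gave differences of the same sign. All 53 ribosome biogenesis genes were below 0 and 35 did not overlap, against 28.9% of all genes, with a median of -0.73. Fbl, which methylates ribosomal RNA, was at 31.8, 68.2 and 44.3 TPM in the MKO_PD1 libraries and 101, 90.3 and 83.9 TPM in the Cre_PD1 libraries. Polr1c, a subunit of RNA polymerases I and III, averaged 42.3 ± 12.3 TPM in MKO_PD1 and 80.5 ± 7.07 TPM in Cre_PD1. Of 28 initiation factor genes 27 were below 0 and 21 did not overlap, with a median of -0.69, and Eif3m averaged 101 ± 32.1 TPM in MKO_PD1 and 192 ± 33.0 TPM in Cre_PD1. Of 8 elongation and termination genes 8 were below 0 and 7 did not overlap, and Eif5a averaged 591 ± 193 TPM in MKO_PD1 and 934 ± 68.1 TPM in Cre_PD1. Without MKO_PD1 replicate 2, limma called 40 of the 53 biogenesis genes, 12 of the 16 TOP mRNAs and 21 of the 28 initiation factor genes, against 45.9% of all genes in either direction in that fit. Under median-of-ratios scaling the medians were -0.34 for the TOP mRNAs, -0.30 for the snoRNA hosts, -0.27 for biogenesis, -0.22 for initiation and -0.15 for elongation and termination.

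Regulators of ribosomal protein mRNA were mixed. Of 14 tested genes 12 were below 0, against 72.9% of all tested genes, 3 did not overlap and were lower, against 28.9%, and 1 did not overlap and was higher, against 10.1%. Their median was -0.48, and these counts lie near the shares of all genes. Eif4ebp1, a repressor of cap-dependent translation that mTOR inactivates, was at 101, 239 and 156 TPM in the MKO_PD1 libraries and 474, 379 and 339 TPM in the Cre_PD1 libraries, without overlap and with a log2 difference of -1.33 (SE 0.35). Its relative Eif4ebp2 was at 101, 73.3 and 88.7 TPM in the MKO_PD1 libraries and 51.2, 53.2 and 68.7 TPM in the Cre_PD1 libraries, without overlap in the opposite direction, with a difference of 0.59 (SE 0.25). Mxi1, an antagonist of Myc, averaged 29.0 ± 13.5 TPM in MKO_PD1 and 67.5 ± 17.7 TPM in Cre_PD1, and Maf1, a repressor of RNA polymerase III, averaged 67.7 ± 31.4 TPM in MKO_PD1 and 122 ± 3.57 TPM in Cre_PD1. Limma adjusted p was 0.168 for Eif4ebp1, Mxi1 and Maf1 and 0.175 for Eif4ebp2. Of 8 genes of the ribosome and p53 checkpoint 8 were below 0 and 3 were lower without overlap, the last near the share of all genes, with a median of -0.80. Trp53 averaged 46.8 ± 17.7 TPM in MKO_PD1 and 80.0 ± 17.97 TPM in Cre_PD1 and the p53 target Bbc3 averaged 17.7 ± 3.02 TPM in MKO_PD1 and 31.9 ± 3.81 TPM in Cre_PD1.

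Other multi-protein machines were set beside the ribosome for comparison. The 77 tested mitochondrial ribosomal protein genes had a median of -0.35, with 74 below 0 and 36 lower without overlap. The 73 nuclear respiratory chain subunit genes had a median of -0.18, with 56 below 0 and 33 lower without overlap. The 37 proteasome subunit genes had a median of -0.49, with 37 below 0 and 26 lower without overlap. Of the 84 tested cytosolic ribosomal protein genes 83 were below 0 and 42 lower without overlap. By the count without overlap the proteasome genes thus separated more often than these, and the other sets nearly as often. Over all genes 72.9% were below 0 and 28.9% lower without overlap. Under median-of-ratios scaling these medians were 0.11, 0.29 and -0.0089, beside -0.36 for the cytosolic ribosomal protein genes. The summed TPM of cytosolic over mitochondrial ribosomal protein genes, a ratio that no scaling changes, was 14.7, 22.1 and 19.5 in MKO_PD1 and 30.9, 26.8 and 21.9 in Cre_PD1. MKO_PD1 replicate 2 exceeded Cre_PD1 replicate 3, so the groups overlapped in this ratio. Without MKO_PD1 replicate 2, limma called 24 of the mitochondrial ribosomal protein genes, 6 of the respiratory chain genes and 24 of the proteasome genes, in either direction. The share over all genes in that fit was 45.9%, so the proteasome lay above it and the other sets below it. No test was made of the sets against each other.

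**Figure D5:**
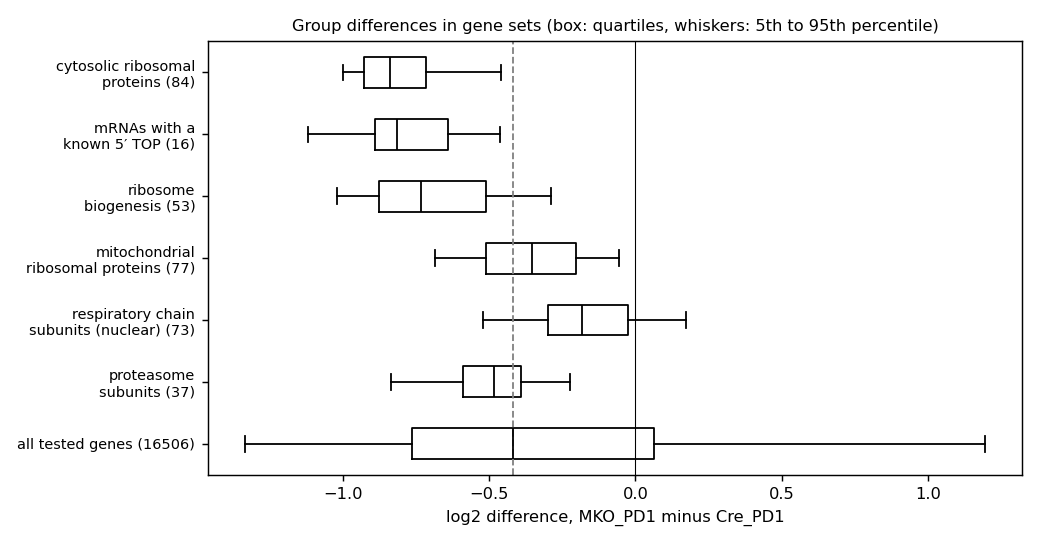
Log2 differences (MKO_PD1 minus Cre_PD1) over the tested genes of each set, with the number of genes in brackets, the box at the quartiles, the line at the median and whiskers at the 5th and 95th percentile. Cytosolic ribosomal protein genes have their median at -0.84 and a narrow box, and all tested genes have theirs at the dashed line of -0.42.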

How the data were processed

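The deposited table gives 1 value per gene for each of 6 bulk polyadenylated RNA libraries. It is named as TPM, the unit the tests were planned for, but the values deposited by the authors are a read signal per base of exon that was not scaled to a fixed total. Times the gene's exon length in GENCODE M21 and divided by 8.03, they gave whole reads within 0.001 for 29352 of 29798 genes (98.5%). Per the submitters' processing notes, reads were aligned with STAR 2.7.10a to mm10 and counted with featureCounts 2.0.3 of Subread; the annotation, strand setting and treatment of shared reads are not given in the sources used here. Each library was rescaled to 1000000.

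Genes that reached 1 TPM in 3 or more libraries (16506) were fitted as log2(TPM + 1) with limma 3.58.1 in R 4.3.3 (mean-variance trend, no covariate, all 6 libraries), Benjamini-Hochberg adjusted over all genes, threshold 0.05. A fold on this scale understates changes of low genes. One read on 1 kb of exon was 0.0763 to 0.114 TPM, and read floors cover counting error only. The labels do not say whether libraries of a group came from separate mice, so p-values measure the spread between these samples. Paralogue ratios were compared with exact permutation tests (scipy 1.17.1), and sequences aligned with Biopython 1.88.

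The members and lists were chosen with earlier results of these data known. Named members are those past the threshold (0), the 10 highest and 10 lowest by mean TPM, the 5 highest and 5 lowest differences, the 5 of smallest unadjusted p, the paralogue pairs and the role groups, and outside the members up to 4 of smallest unadjusted p per list. One tested member is not reported here by name, nor is its role group, and it is counted in totals and medians. Rps6, Rps21, Rps29 and Rpl38 were named after their values were seen. Alternatives changed the pseudocount, the filter, the scaling, the replicate block, the unit (voom on recovered reads) and the libraries included.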

Additional observations from a re-analysis of the deposited data

How the results depend on the processing

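The count of members called was 0 in each direction under every alternative other than leaving out 1 library, where the count called lower ranged from 0 to 66; it was 66 without MKO_PD1 replicate 2 and 0 without each other library. The median member difference of -0.84 was -0.36 with median-of-ratios scaling, -0.33 with voom on recovered reads and -0.014 when scaled to the ribosomal protein genes, an alternative chosen after seeing the data which sets it near 0 by construction. Leaving out 1 library gave -1.07 to -0.59 for that median and -5.49 to -3.58 percentage points for the difference in TPM share (-4.45 with all libraries, -4.15 without hepatocyte genes in the total). Scaled to the ribosomal protein genes, the difference turned positive for Rpl36 (0.031), Rps15 (0.21), Rpl4 (0.0014), Rps10 (0.26), Rps3a2 (0.075), Rpl22 (0.062), Rpl24 (0.48), Rps27l (0.80), Rpl41 (0.39) and Rpl7l1 (0.37). With median-of-ratios scaling it turned positive for Rpl24 (0.21), Rps27l (0.45), Rpl41 (0.044) and Rpl7l1 (0.022), and with voom for the same 4 (0.30, 0.49, 0.083 and 0.053 in that order). With 1 library left out at a time, Rpl24 ranged from -0.36 to 0.095 and Rps27l from -0.11 to 0.054. Rps27l also turned to 0.076 without the hepatocyte genes in the total and to 0.088 as deposited. Apart from the scaling to the members, the cause was not tested. Over 32 named genes and their alternatives, 460 of 506 values kept direction and side of the threshold. Same-numbered libraries did not deviate together (correlations of -0.42, -0.26 and 0.049 across 16506 genes). No pairing by replicate number was seen, but libraries of a group also differ in tissue markers, which could hide one. With the replicate block 0 members were called, with the same median of -0.84. Depth limited the comparison for the 5 members with too few reads to test.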
